A study of Homo sapiens with 2 samples.

Results

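Chromosome 20 carried 852 of the 20085 peaks listed for a PML-RARA antibody in NB4 cells, and 852 of the 20072 on chromosomes 1 to 22 and X. The members were chosen by position alone: every peak whose chromosome is given as chr20 in the hg19 list (whose starts may count from 0) was taken, and the chromosome was picked for description with its high number of peaks already known. NB4 is an established line of human acute promyelocytic leukemia cells, and it makes the PML-RARA fusion protein. The cells had no stated treatment and form 1 group, with 2 replicates of CUT&Tag, in which an antibody directs a transposase to nearby chromatin. Both replicates enter 1 peak list merged by the authors, with no value per replicate, no control and no depth used here, so no spread between replicates could be computed and no difference given here has a test.

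PML-RARA joins the nuclear body protein PML to the retinoic acid receptor alpha and acts at retinoid response elements and other regulatory DNA of myeloid cells, where it recruits co-repressors. Chromosome 20 holds several genes of that setting. CEBPB encodes a transcription factor of granulocyte and monocyte maturation, TGM2 a transglutaminase that retinoic acid induces in promyelocytic cells, and SIRPA an inhibitory receptor of macrophages. Without an hg19 annotation of the whole chromosome, most genes can be tied to peaks only through a shared cytogenetic band. For 8 genes, gene models from installed software samples gave a start site and a distance. For BCAS1 the sample names hg19 as its build, and for the other 7 the build is not named and was read as hg19.

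At 3 of those genes the peak lay at or near the start of transcription and the gene model had the same length, to within 100 bases, in the RefSeq table. The 250 bases upstream of their start sites are shown because they are the promoter sequences that chromosome 20 peaks can be placed on. They are read 5′ to 3′ on the gene's strand from RefSeq (GRCh38.p14, chromosome 20), and capitals mark the bases that lie under the peak when distances from the start site in hg19 are applied. The start sites of the gene models may differ slightly between sources, so the edges of the capitals are approximate.
NCOA5 (minus strand): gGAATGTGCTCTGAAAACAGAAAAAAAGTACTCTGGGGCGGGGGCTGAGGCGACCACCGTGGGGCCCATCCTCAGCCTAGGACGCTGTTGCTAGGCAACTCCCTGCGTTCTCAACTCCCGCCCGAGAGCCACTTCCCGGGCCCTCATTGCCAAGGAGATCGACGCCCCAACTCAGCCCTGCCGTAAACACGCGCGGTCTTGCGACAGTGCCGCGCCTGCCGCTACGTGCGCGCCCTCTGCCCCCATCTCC
SEC23B (plus strand): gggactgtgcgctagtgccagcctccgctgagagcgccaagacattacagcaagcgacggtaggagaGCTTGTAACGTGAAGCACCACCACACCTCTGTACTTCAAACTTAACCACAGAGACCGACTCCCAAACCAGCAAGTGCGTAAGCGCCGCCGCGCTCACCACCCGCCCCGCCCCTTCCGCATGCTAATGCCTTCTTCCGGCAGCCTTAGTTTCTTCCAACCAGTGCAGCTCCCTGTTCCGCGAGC
NTSR1 (plus strand): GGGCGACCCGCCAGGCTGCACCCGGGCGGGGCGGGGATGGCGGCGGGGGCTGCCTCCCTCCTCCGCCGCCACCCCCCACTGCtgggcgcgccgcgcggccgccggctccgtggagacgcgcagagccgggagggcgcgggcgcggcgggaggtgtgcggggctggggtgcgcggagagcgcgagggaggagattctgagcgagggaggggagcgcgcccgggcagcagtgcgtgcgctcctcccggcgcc

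The peak of NCOA5 reached 249 bases upstream of the start and that of SEC23B 183 bases, and both ran on into the gene. The peak of NTSR1 ended 168 bases before the start, so that 82 of the 250 bases lay under it. GC content was 64.4% in NCOA5, 59.6% in SEC23B and 82% in NTSR1, against a median of 58.8% over 921 RefSeq promoters of chromosome 20. The CpG counts were 21, 18 and 38 in the same order, against a median of 10. Of 6 short motifs searched on both strands, GGGCGG, the GC box, was found in all 3 windows, at 2 places in each, and it occurs in 40.1% of the chromosome 20 promoters of the same length and in 42.6% of all 35116. The retinoid half-sites AGGTCA and AGTTCA, the ETS-like GAGGAA, the CCAAT box and the AP-1-like TGANTCA were in none of the 3. These motifs occur in 13.5%, 8.58%, 24.3%, 30.5% and 6.08% of chromosome 20 promoters, in the order given, and in 12.1%, 8.80%, 23.6%, 32.0% and 6.57% of all. In NTSR1 and SEC23B the 2 matches start 5 bases apart and overlap by a base.

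The 8 genes with an hg19 start site show what the list looks like at single genes. SIRPB2, a member of the signal regulatory protein family of myeloid cells, had a peak across its start site at 1471331 to 1472807 with a total signal of 9720 and a maximum of 25. Total signal is read here as the authors' coverage summed over the bases of a peak, and the maximum as its highest point. The sources used here do not state this reading. NCOA5, a co-regulator of nuclear receptors, had a peak across its start at 44717848 to 44718850 with a total of 6352 and a maximum of 24. SEC23B, a coat protein of vesicles that leave the endoplasmic reticulum, had one at 18487942 to 18488809 with a total of 6871 and a maximum of 20. STAU1, a protein that binds double-stranded RNA, had one at 47804565 to 47805134 with a total of 3320 and a maximum of 23. By total signal these peaks ranked 298 (SIRPB2), 420 (NCOA5), 394 (SEC23B) and 689 (STAU1) among the 852, so none stood among the strong peaks described further on. The models of SIRPB2 and STAU1 differed from RefSeq in length by 3903 and 30925 bases, so their start sites are less certain.

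NTSR1, the gene of a receptor for the peptide neurotensin, carried far more signal inside the gene than at its start. Its nearest peak, at 61338914 to 61340019, had a total of 11443. Another 6 peaks lay inside the gene (61340187 to 61394123) with a summed total of 209605. The first of them overlapped exon 1, and the other 5 lay in the first intron of the 4-exon model. The largest, at 61365024 to 61373264, was centred 28957 bp from the start site, with a total of 152036 and a maximum of 197. It ranked 5 by total signal on chromosome 20 and 98 among all peaks on the chromosomes. In the RefSeq order of protein-coding genes, NTSR1 stands between SLCO4A1 and MRGBP, and neither was placed on hg19 here.

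The remaining 3 genes had no peak within 2 kb of the start and none inside the gene. BCAS1, which lies between ZNF217 and CYP24A1, had its nearest peak 135441 bp from the start, although ZNF217 and CYP24A1 share its band with 25 peaks. BCAS1 is on the minus strand (52560078 to 52687304), and that peak, at 52550985 to 52551863, lies past the other end of the gene. It is the last of a run of 8 peaks that starts at 52509359. The nearest peak to APCDD1L lay 104523 bp away and that to FAM209A 55953 bp away. The model of FAM209A differed from RefSeq in length by 7423 bases, so its start site and this distance are less certain. In all, 5 of the 8 genes had a peak within 2 kb of the start in these models. The models are software examples and not a sample of the chromosome.

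Chromosome 20 was peak-rich for its length. It had 13.5 peaks per Mb, against 6.46 on the other chromosomes, a ratio of 2.09, and peaks covered 1.60% of it, against 0.762% of the others. With 2.08% of the length of the chromosomes it held 4.24% of the peaks and 4.02% of the summed signal. By peaks per Mb it ranked 3 of 23 chromosomes, behind 19 (27.0) and 17 (16.5) and just ahead of 16 (12.7) and 22 (11.2). By protein-coding genes per Mb it ranked 6, with 8.52, against 24.5 on chromosome 19, 9.45 on 16 and 8.79 on 22. The 2 rankings use peaks on hg19 and genes counted on GRCh38. Both divide by whole hg19 chromosome lengths, in which any stretches without sequence are counted. The order of chromosomes with close densities, such as 20, 16 and 22, may depend on that choice.

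**Figure D1:**
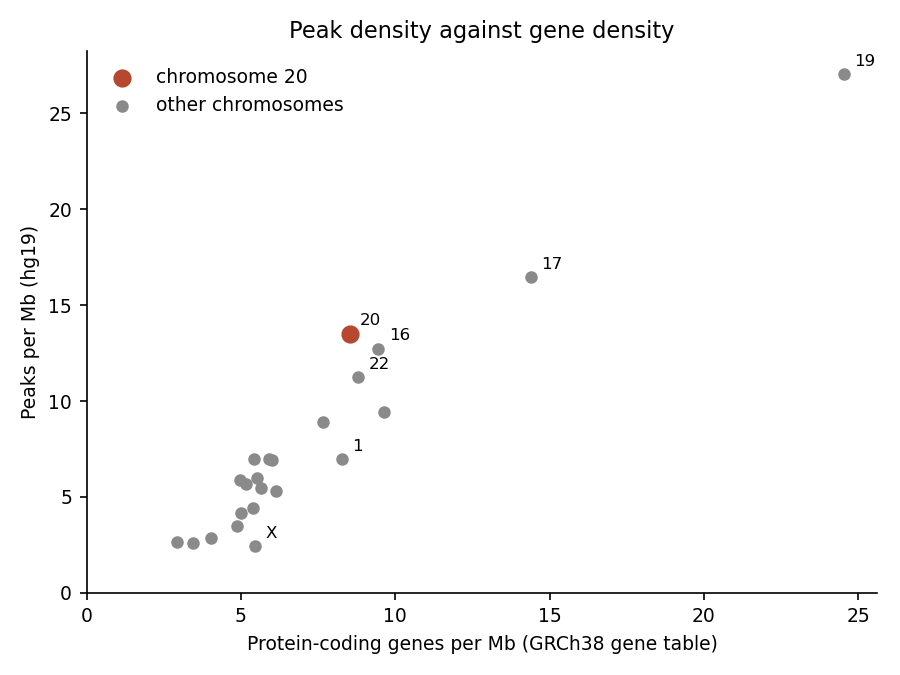
Peaks per Mb (vertical axis) against protein-coding genes per Mb (horizontal axis) for 23 chromosomes, each a point, with chromosome 20 in red and the other chromosomes in grey. Chromosome 20 stands at 13.5 peaks and 8.52 genes per Mb, above chromosomes 16 and 22, which have more genes per Mb and fewer peaks per Mb.

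The peaks themselves were close in size to those elsewhere. Median total signal was 6288 on chromosome 20 (interquartile range 3666 to 12907) and 6490 on the other chromosomes, a ratio of 0.969. The median maximum was 21 against 22, and the median length 888 bp against 893 bp. Total signal went with length (Spearman's rho 0.793 over the 852 peaks, which share both libraries and whose total is read as a sum over that length). Height went with length less (0.431). The strongest 85 peaks held 46.1% of the signal of chromosome 20, and on the other chromosomes the strongest 10% held 46.5%. Of the 852 peaks, 91 (10.7%) were longer than 2 kb, against 11.0% of the peaks on the chromosomes. A length of 4 kb or more was reached by 22 (2.58%), against 2.12%. By total signal 82 (9.62%) stood in the top 10.0% of the chromosomes and 9 (1.06%) in the top 1.00%. All of these shares lie near those of the whole list.

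The arms differed in density. The long arm, 20q, held 641 peaks and the short arm, 20p, held 211, or 18.0 against 7.67 per Mb, a ratio of 2.35. The boundary between the arms lies in a gap without peaks from 25677811 to 30157031, so no peak is close to it on either side. Peaks covered 2.16% of 20q and 0.881% of 20p. Per protein-coding gene the difference was smaller, with 1.80 peaks on 20q (357 genes) and 1.17 on 20p (180 genes). Among 18 chromosomes with at least 20 peaks on each arm, only chromosome 10 had a higher ratio of long-arm to short-arm density (3.75). In the other direction the contrast was larger on chromosome 4 (7.46 peaks per Mb on the short arm, 1.21 on the long arm) and chromosome 6 (10.5 and 2.42).

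Peaks on 20q had lower medians. Median total signal was 5924 on 20q and 7644 on 20p, a ratio of 0.775, which was the lowest among those 18 chromosomes. The median maximum was 20 against 25, and the median signal per base 7.16 against 8.33. The lower quartile of total signal was 3478 on 20q and 4503 on 20p, while the strongest peak was on 20q (292701, against 162086 on 20p). Peaks in the top 10.0% of the chromosomes by total signal made up 9.67% of those on 20q and 9.48% of those on 20p. Among peaks at or above the median total of the whole list, the ratio of the medians was 0.969. Over the 17 other chromosomes, the denser arm had the lower median in 6.

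**Figure D2:**
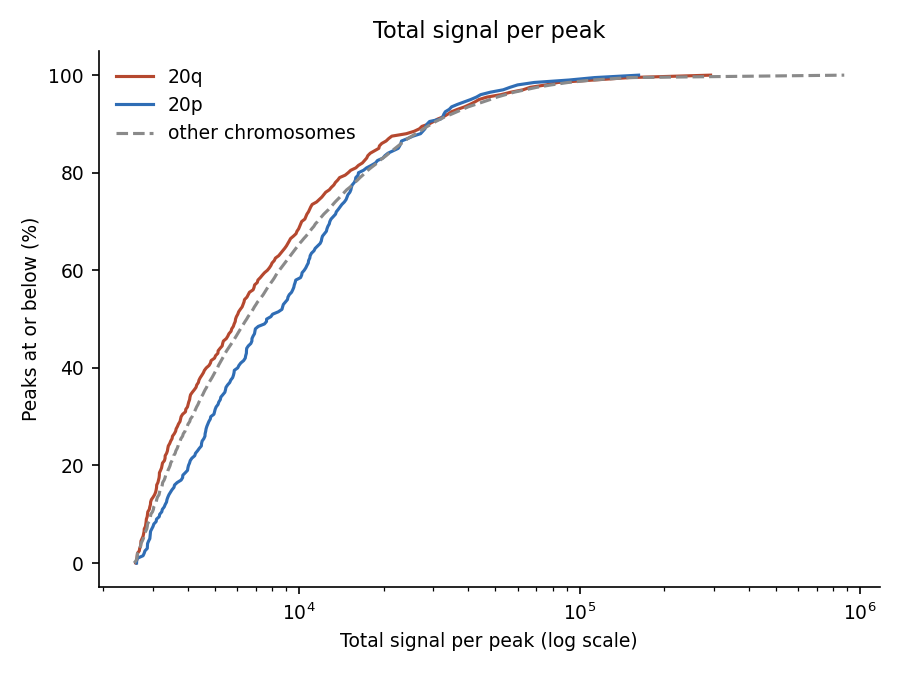
Cumulative share of peaks (vertical axis, percent) by total signal per peak (horizontal axis, log scale) for 20q in red, 20p in blue and the other chromosomes as a dashed grey line. The 20p curve runs to the right of the 20q curve over the weaker peaks (medians 5924 on 20q and 7644 on 20p), and 9.67% of the peaks on 20q and 9.48% of those on 20p stand in the top 10.0% of the chromosomes.

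Tall and narrow peaks were more frequent on the short arm. A maximum in the top 10% of the chromosomes (68 or more) with a length under 1.5 kb was found for 29 peaks of chromosome 20 (3.40%), against 3.49% over the chromosomes. These were 15 of 641 on 20q (2.34%) and 14 of 211 on 20p (6.64%). The tallest was in 20q13.12, at 44621661 to 44623013, with a maximum of 158 over 1352 bp. On 20p the tallest were at 3410935 to 3412379 (maximum 138) in 20p13 and at 23338236 to 23339201 (maximum 136) in 20p11.21. A further peak of 20p11.23, at 19895255 to 19896866, was slightly longer than that length limit and had the highest signal per base of the chromosome, 58.3, with a maximum of 255.

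In 1 Mb bins the peaks were uneven on both arms. Of 64 bins, the last of which is a fragment at the end of the long arm, 16 had no peak, 8 on each arm. The empty bin from 27 to 28 Mb spans the arm boundary and was counted with 20q. With the centromeric bands left out, 13 bins had no peak. The median was 18 peaks per bin over the 37 bins of 20q and 4 over the 27 bins of 20p. At least 20 peaks were found in 12 bins of 20q and 6 of 20p. The fullest bins were all on 20q, with 85 peaks from 62 to 63 Mb, 65 from 61 to 62 Mb and 56 from 48 to 49 Mb, together 24.2% of the peaks and 26.1% of the signal of the chromosome. The 10 fullest bins held 47.2% of the peaks. On 20p, the first 5 bins held between 21 and 25 peaks each, in total 113, or 53.6% of the arm. The bin from 23 to 24 Mb, with 24 peaks, stood apart from its empty neighbour below and from the single peak in the bin above.

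**Figure D3:**
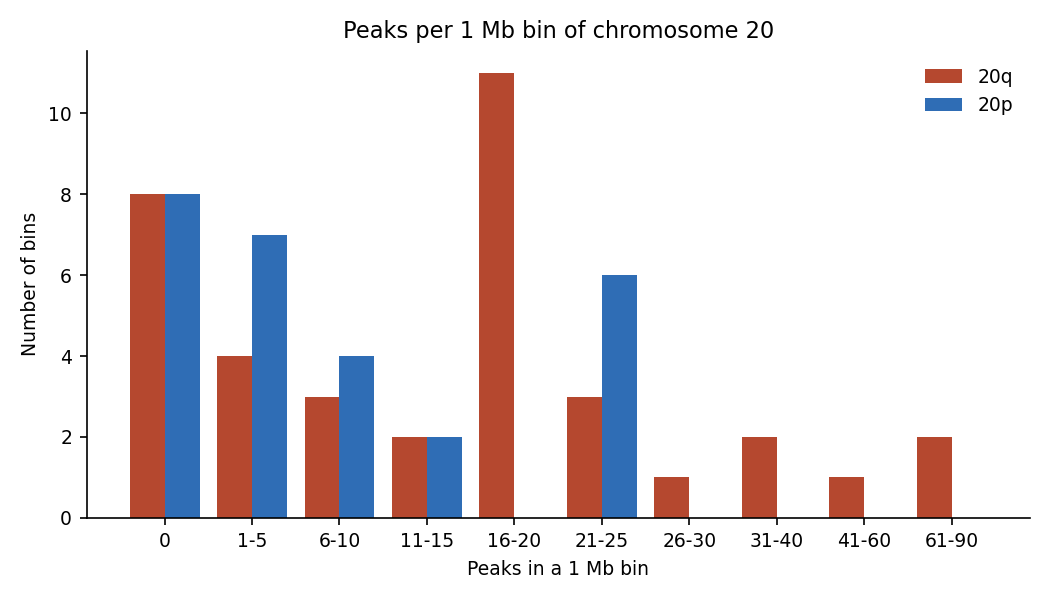
Number of 1 Mb bins (vertical axis) by the number of peaks in the bin (horizontal axis, in classes that widen to the right) for 20q in red and 20p in blue. Both arms have 8 empty bins, the bins of 20p go no higher than 25 peaks, and those of 20q reach 85.

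Long stretches had no peak at all. The list leaves 13 gaps of more than 1 Mb on chromosome 20, which add up to 27.2 Mb or 43.1% of its length. The longest was the centromeric gap of 4.48 Mb. It was followed by 3.88 Mb in 20p12.1, from 13665538 to 17550286, in the band that holds MACROD2, a very large gene of a deacetylase of ADP-ribose. Next came 2.42 Mb in 20q13.2, from 52551863 to 54967226, and 1.96 Mb in 20q13.33, from 58680771 to 60638480. The last of these lies inside the band with the most peaks. The most isolated peak, at 13665204 to 13665538 in 20p12.1, was 1793346 bp from its nearest neighbour and had a total of 2768, close to the lowest of the list (2577). Peaks more than 100 kb from any other numbered 33 (3.87%), against 8.08% over the chromosomes, with 18 of 641 on 20q (2.81%) and 15 of 211 on 20p (7.11%).

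By band, 20q13.33 led in number of peaks, peaks per Mb and share of the signal. This band at the tip of the long arm held 176 peaks (38.0 per Mb) and 23.4% of the signal of the chromosome, and ranked 26 of 784 bands of the genome by peaks per Mb. It was followed by 20q13.13 with 106 peaks (31.2 per Mb), 20q11.21 with 71 (26.3 per Mb), 20q13.31 with 38 (25.3 per Mb) and 20p13 with 118 (23.1 per Mb). No other band of 20p exceeded 10.0 per Mb, the value of 20p11.21. The bands 20p11.22 and 20q11.1 had no peak listed, and 20q12, 20p12.3, 20p12.2 and 20p12.1 had 3.41, 3.41, 3.45 and 1.55 per Mb. Giemsa-negative bands had 20.6 peaks per Mb, the palest positive bands 17.8 and the darker positive bands 4.08. Across the 17 bands whose length differs by at most 10% between the builds, the density of peaks went with that of protein-coding genes, at a Spearman's rho of 0.777 and a Pearson's r of 0.749. The bands share both libraries and border on each other, so this is a description.

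**Figure D4:**
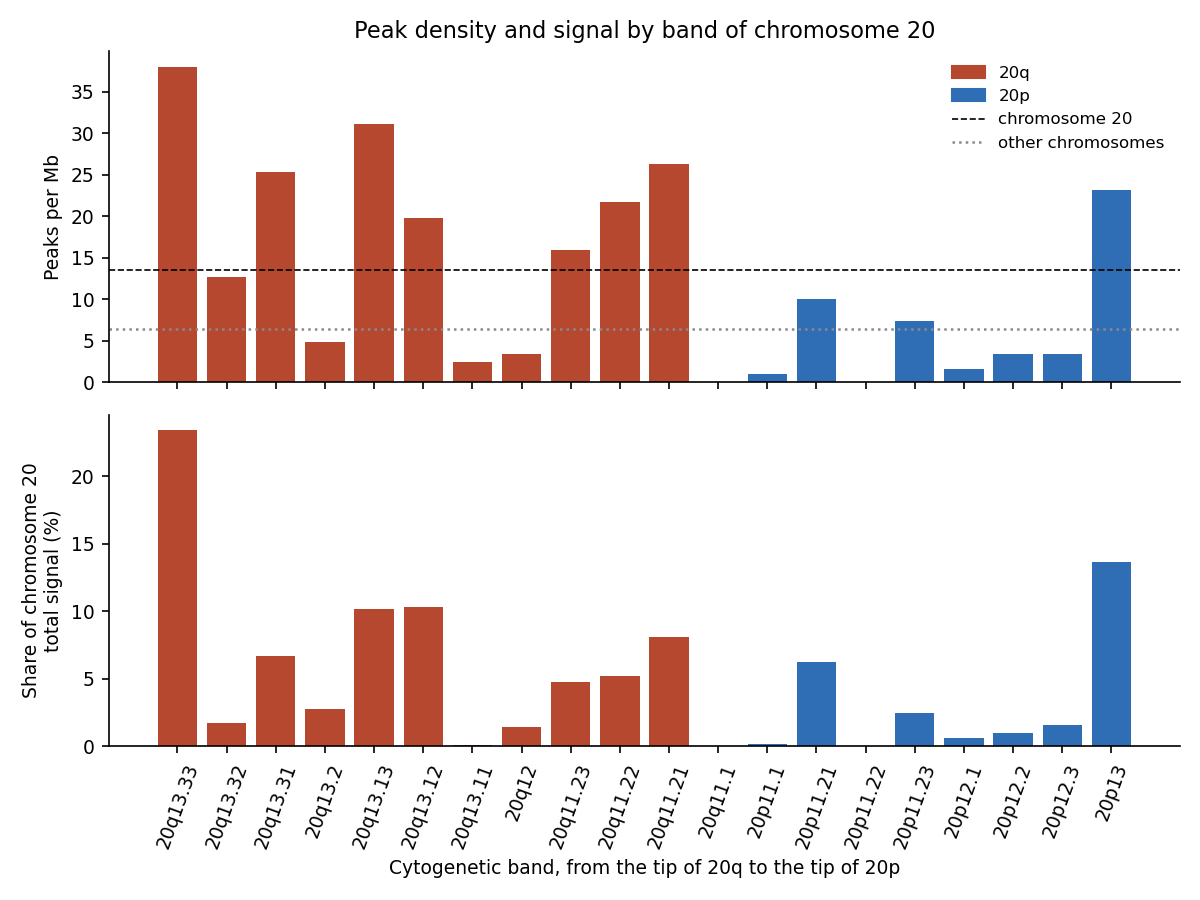
Peaks per Mb (upper panel) and share of the chromosome's total signal in percent (lower panel) for the 20 cytogenetic bands of chromosome 20, from the tip of the long arm to the tip of the short arm, with 20q in red and 20p in blue. Dashed and dotted lines give the density of chromosome 20 (13.5) and of the other chromosomes (6.46), and 20q13.33 stands highest at 38.0.

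The band 20q13.13 had the most peaks per gene. It held 4.08 peaks for each of its 26 protein-coding genes, against 1.59 over the chromosome, ahead of 20q13.31 (2.92) and 20q13.33 (2.51), while 20p13 had 1.44 and 20q13.12 had 1.08. Its genes include CEBPB, SNAI1, a zinc finger repressor, ADNP, a homeobox zinc finger protein, PTPN1, a tyrosine phosphatase that acts on JAK kinases, PREX1, an activator of the GTPase Rac in neutrophils, and CSE1L, an export receptor for importin alpha. The bin from 48 to 49 Mb held 56 of its peaks. In it lay a run of 9 peaks at 48876824 to 48914505 (summed total 74806) and a run of 7 at 48954375 to 48975586 (summed total 184425). The strongest peak of the band, at 48954375 to 48958538, had a total of 86124 and a maximum of 154. The distance of these peaks to CEBPB or any other gene was not measured.

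The 10 strongest peaks by total signal lay in 6 bands, with 8 on 20q, which held 75.2% of the 852 peaks, and 2 on 20p. The strongest, in 20q13.33 at 61199500 to 61208758, was also the longest of the chromosome (9258 bp), with a total of 292701, a maximum of 172 and 31.6 per base. It ranked 18 among all peaks on the chromosomes and had no neighbour within 10 kb. The second, in the same band at 58629603 to 58634638, had a total of 210825 over 5035 bp and a maximum of 258. It stands near the edge of the gap of 1.96 Mb. The third, in 20q13.31 at 56022851 to 56028058, had a total of 165138, and the ninth, at 56006086 to 56011704, had 112704 in the same run.

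The strongest peak of 20p, which ranked 4 on the chromosome, lay in 20p11.21 at 23103633 to 23109978. Its maximum of 266 was the highest of chromosome 20, and its total was 162086. This band holds CD93, a receptor of myeloid and endothelial cells, THBD, which encodes the anticoagulant receptor thrombomodulin, and the cystatin genes CST3 and CST7, of which CST7 is expressed in leukocytes. In 20q11.21, the band of ASXL1, a chromatin regulator mutated in myeloid neoplasms, ID1, an inhibitor of helix-loop-helix factors, and the survival gene BCL2L1, the peak at 31259784 to 31264198 had a total of 142467 and a maximum of 224. In 20q11.22, which holds E2F1, a cell cycle factor, NCOA6, a nuclear receptor co-activator, and PROCR, the receptor of protein C, the peak at 34203419 to 34206714 had a total of 118948 and a maximum of 244. The last of 20p among the 10, in 20p13 at 4802418 to 4805022, had a total of 113888 over 2604 bp and 43.7 per base. The weakest of the 10, at 62738451 to 62745593 in 20q13.33, was long and lower, with 110419 over 7142 bp and 15.5 per base. Genes are named by band alone, and the name of 20q11.21 covers stretches whose length differs by 14.8% between the builds.

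Peaks gathered in runs, here neighbours joined by gaps of at most 10 kb. Of the 852 peaks, 569 (66.8%) had a neighbour within 10 kb, against 61.4% over the chromosomes. The share was 70.4% on 20q and 55.9% on 20p. In runs of at least 3 peaks lay 411 (48.2%), against 44.0%, and in runs of at least 8 lay 146 (17.1%), against 14.1%. Chromosomes 16, 19 and 22 had neighbour shares of 69.7%, 74.0% and 61.2%. The 79 runs of at least 3 peaks, 62 on 20q and 17 on 20p, held 58.3% of the signal of chromosome 20, against 55.3% on the other chromosomes. Such runs took in 52.0% of the peaks of 20q and 37.0% of those of 20p. Peaks in runs of 8 or more had a median total of 7625 and a median length of 1129 bp, against 6115 and 846 bp for the 283 peaks without a neighbour in reach, and median maxima of 19 against 22. On the other chromosomes these medians were 6863 and 1074.5 bp against 6135 and 813 bp, and 18 against 23 for the maximum. Median length was thus higher in the long runs and median height was not, on chromosome 20 as on the others.

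The leading run lay in 20q13.31, at 55964086 to 56056952, with 24 peaks over 92.9 kb. Its summed total of 612368 was 5.51% of the signal of the chromosome, and peaks covered 54.2% of its length. Its 24 peaks had totals from 2919 to 165138 with a median of 10436, and 5 of them stood in the top 10.0% of the chromosomes. The strongest 2 made up 45.4% of the run. By number of peaks it ranked 8 among the runs of all chromosomes. BMP7, a bone morphogenetic protein and the listed gene of this band, is a gene of epithelial and skeletal tissues, and its distance from the run was not measured.

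Of the next 4 runs, 3 lay in 20q13.33. One at 62664238 to 62748693 had 17 peaks and a summed total of 409430, with totals from 2866 to 110419. One at 62165109 to 62206202 also had 17 peaks and summed to 155900, with no peak above 42345. The third, at 62571645 to 62612995, had 14 peaks and summed to 196475. The band of these runs holds PRPF6, a splicing factor, TCEA2, a transcription elongation factor, TNFRSF6B, a decoy receptor for FAS ligand, and CHRNA4, a subunit of neuronal acetylcholine receptors. The run with 14 peaks on 20p, at 23097034 to 23143986 in 20p11.21, summed to 309663, and its strongest 2 peaks made up 62.9% of that.

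**Figure D5:**
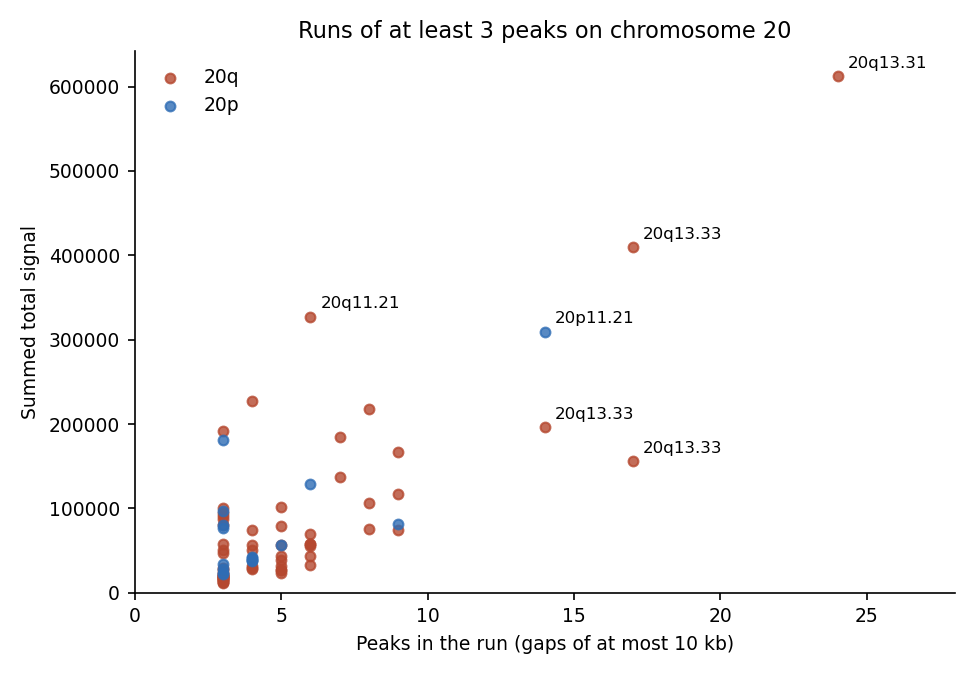
Summed total signal (vertical axis) against the number of peaks (horizontal axis) for the 79 runs of at least 3 peaks, with 20q in red and 20p in blue and the bands of the largest runs written beside them. The run of 24 peaks in 20q13.31 stands highest at a summed total of 612368, and the 2 runs of 17 peaks differ from each other, at 409430 and 155900.

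A set of 8 gene lists with 110 genes of chromosome 20 shows which bands the genes of each role share with peaks. Of all 537 protein-coding genes of the chromosome, 396 (73.7%) lay in bands with more than the chromosome's 13.5 peaks per Mb, and the median gene lay in a band with 21.7. For transcription factors and chromatin regulators of blood cells it was 13 of 17 with a median of 21.7. CEBPB lay in a band with 31.2 per Mb and MYBL2, a cell cycle factor of the MYB family, in one with 19.8. For kinases, phosphatases and receptors of phagocytes and leukocytes it was 15 of 18 with a median of 22.4. SIRPA, SIRPB1, SIRPG and SIGLEC1, a sialic acid receptor of macrophages, share 20p13 with 118 peaks. PLCG1, a phospholipase of receptor signalling, lay in 20q12 with 14 peaks.

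Retinoid and nuclear receptor genes had 7 of 8 members in such bands, with a median of 19.8. TGM2 lay in 20q11.23 with 51 peaks (15.9 per Mb), NCOA3, a steroid receptor co-activator, and HNF4A, a nuclear receptor of liver and gut, in 20q13.12 with 85, and CYP24A1, which degrades vitamin D, in 20q13.2 with 25 (4.81 per Mb). Proteases and their inhibitors had 6 of 9 with a median of 19.8, among them MMP9, a gelatinase of neutrophils, and SLPI, an inhibitor of leukocyte elastase, both in 20q13.12. Cell cycle and survival genes had 10 of 15 with a median of 21.7, and PCNA, the DNA polymerase clamp, lay in 20p12.3 with 14 peaks. Genes of the ribosome, proteasome, splicing and translation had 12 of 14 with a median of 22.4. XRN2, a nuclear exonuclease, lay in 20p11.22, where no peak is listed.

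Genes of other cell types were counted in the same way. Neuronal genes had 10 of 14 members in such bands with a median of 23.1. CHRNA4 and CDH4, a cadherin gene, lie in 20q13.33, while SNAP25, a protein of synaptic vesicle release, lies in 20p12.2 with 10 peaks. Epithelial, liver and gonadal genes had 8 of 16 with a median of 14.9, with the developmental factor genes PAX1 and NKX2-2 in 20p11.22 without a peak. The lists were chosen with earlier results of these data known, and a band holds many genes, so these counts link no peak to any single gene.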

How the data were processed

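CUT&Tag with a PML-RARA antibody was run on NB4 cells in 2 replicates, and the authors deposited 1 merged peak list that gives each peak's position and its signal in 2 columns. Per the submitters' processing notes, Trimmomatic, Bowtie2, SAMtools, bedtools and SEACR were used with hg19. The way of merging, versions and settings: not given in the sources used here. Columns headed width and peak, as deposited, were read as total and maximum signal: in each of the 20085 rows width is larger than the peak's length and at most that length times peak. No scaling to depth is stated, and starts may count from 0.

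Peaks were placed by midpoint in bands and bins with Python 3.11.15 and pandas 2.3.3. Bands came from circlize 0.4.16, chromosome lengths from GenomeInfoDb 1.38.1 and hg19 gene models from GenomicFeatures 1.54.1 and pyranges 0.1.4. The pyranges models do not name their build. The arms were divided as the choice of members gave it, within the centromeric gap. Genes were put in GRCh38 bands, and bands were matched by name. Genes were named by list and shared band, or by hg19 model. On simulated lists, 600 of 600 planted runs were recovered. The members and lists were chosen with earlier results of these data known. No test was made, since peaks are not replicates. Some members of the gene lists are counted but not reported here by name.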

Additional observations from a re-analysis of the deposited data

How the results depend on the processing

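Of 52 recalculations over 10 results, 16 moved past a yardstick of size. None of the ratios reversed in direction, though that of the median maximum reached 1 with peaks within 1 kb merged and with peaks of at least 500 bp. The other results are counts or shares and have no direction to reverse. The yardstick was the 95% interval from counting peaks as if they were independent (for counts 1.5 times the value, for the share of signal 10% of it). For ratios of medians the interval covers the first median only, with the second (such as that of 20p) held fixed. Peaks of 1 merged list are not replicates, so the yardstick says nothing of the spread between replicates or of stability. For chromosome 20 over the other chromosomes, the alternatives gave ratios of 2.02 to 2.15 for peaks per Mb, 0.944 to 0.966 for median total signal, 0.981 to 0.998 for median length and 0.947 to 1 for the median maximum. With only peaks at or above the list's median total signal (413 of chromosome 20), the ratio of 20q to 20p was 1.89 for peaks per Mb and 0.969 for median total, 50.4% of peaks had a neighbour within 10 kb, 32 runs of at least 3 peaks were left, and the top 10% of peaks held 38.0% of the signal. With only peaks at or above its median maximum (417), these values were 1.89, 0.946, 49.6%, 31 and 39.5%. Fewer peaks enter these settings, and those kept are the stronger ones. With peaks within 1 kb merged (714 left), 57.1% had a neighbour within 10 kb. Neighbours within 5, 20 and 50 kb were found for 54.2%, 79.2% and 90.4%, and bins of 0.5 and 2 Mb left 43 and 3 without a peak, by construction of the setting. Leaving out a replicate was not run, because the list is merged. No paired analysis was possible because there is 1 group. Weak peaks depend on the sequencing depth and the caller's threshold, which are unknown here.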

Other observations

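Chromosome 20 has 19 microRNA genes in 20q13.33, the band with 176 peaks, 5 in 20q11.22 and 4 each in 20q13.12 and 20p13, counted in the GRCh38 gene table. The distance from peaks to these genes was not measured.

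On chromosome 20, peaks had a median total signal of 7124 in bands with fewer than 10 peaks per Mb (98 peaks), 6270 in bands with 10 to 20 (193 peaks) and 6086 in bands with 20 or more (559 peaks). The 2 peaks of the centromeric band 20p11.1 are in none of these classes. On the other chromosomes the medians of these classes, in the same order, were 6304, 6666 and 6513. The difference was not tested.

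The ends of the chromosome differ in how close the peaks come. The last peak ended 138312 bp before the end of the long arm, and the first peak on the short arm started at 270810.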
